A study of Homo sapiens with 3 samples.

Results

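Tryptophan breakdown was followed through 6 genes, IDO1, IDO2, TDO2, KYNU, KMO and WARS1 (listed as WARS in older annotation), chosen by name as steps or users of the pathway. Of these, 5 had a transcript cluster of their own among the 14410 genes compared, with 1 cluster each. KMO was listed only on 2 clusters that also carry OPN3, or OPN3 and CHML, so no value could be given to it and it was not analysed here. The values are intensities of exon arrays on a linear scale, 1 per transcript cluster and array, from total RNA of 3 human cell lines. HT-29, a colon adenocarcinoma line, had received interferon gamma (IFN-γ) at 200 U/ml for 24 h in McCoy's 5A medium with 10% fetal bovine serum and 5% CO2. MDA-MB-436, a breast adenocarcinoma line, was kept in L-15 medium with 10% fetal bovine serum, without CO2. MCF10A, a mammary epithelial line, was kept in DMEM/F12 with 5% horse serum, insulin (10 µg/ml), epidermal growth factor (20 ng/ml), cholera toxin (100 ng/ml) and hydrocortisone (500 ng/ml). No IFN-γ is named in the labels for either mammary line, and an HT-29 culture without it was not analysed here, so line, medium and cytokine cannot be told apart. Each line had 1 array, which leaves no replicate spread, and values are given with no test and no error.

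Most tryptophan that is not built into protein is broken down along the kynurenine pathway. IDO1, IDO2 and TDO2 each encode a dioxygenase for its first step, the opening of the indole ring: TDO2 is best known from liver, and IDO1 from cells exposed to interferon, where tryptophan depletion restrains microbes and T cells. Downstream, KMO hydroxylates kynurenine and KYNU, kynureninase, cleaves kynurenine and its hydroxylated form toward NAD synthesis, while aminotransferases divert kynurenine to kynurenic acid. WARS1, the cytosolic tryptophanyl-tRNA synthetase, loads tryptophan onto its tRNA and is itself a known interferon-induced gene, so it uses the amino acid that IDO1 removes.

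Of the 5 measured genes, 3 differed in level between the lines, and they did so in 3 different patterns. IDO1 was above background in HT-29 with IFN-γ and under it in both mammary lines. WARS1 was detected in all 3 lines and was highest in HT-29, then MDA-MB-436, then MCF10A. KYNU ran in the opposite order, with its highest intensity in MCF10A and a value under background in HT-29. IDO2 and TDO2 were under background in every line. The background level, 29.9, was set at the 95th percentile over 228 olfactory receptor genes, which are silent outside olfactory tissue with few exceptions, and their highest intensity was 101. A gene was counted as higher or lower when it differed at least 4-fold, a log2 difference of 2, and the brighter array exceeded background. Where the dimmer array lay under background, the fold printed was taken against 29.9 and is given as "at least". The counts used the deposited intensities instead, so a counted gene can have a printed bound under 4-fold. A dimmer value between 29.9 and 101 was used as measured. Some olfactory receptor intensities lay in that range, so such folds are less certain.

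**Figure D1:**
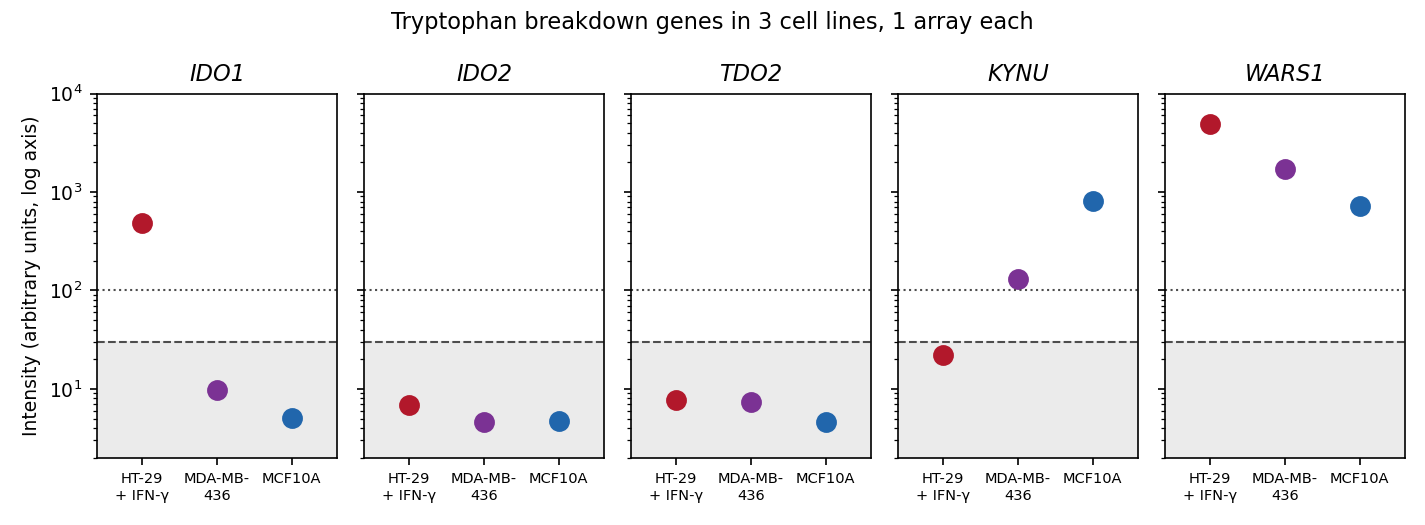
Intensity of the 5 measured genes (log axis, arbitrary units) in HT-29 with IFN-γ, MDA-MB-436 and MCF10A, 1 point per array and no replicates. The shaded band ends at the background of 29.9 (dashed line) and the dotted line is the highest olfactory receptor intensity, 101; IDO1 passes both lines in HT-29 alone, WARS1 in every line, KYNU in MDA-MB-436 and MCF10A.

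By these criteria, 2 of the 5 genes were higher and 1 was lower in HT-29 relative to MCF10A, a comparison in which 4.34% of all genes were higher and 3.5% lower. Against MDA-MB-436, 1 was higher and 1 lower in HT-29, with 4.21% and 4.68% of all genes in those directions. Between MDA-MB-436 and MCF10A, 0 were higher and 1 was lower, against 3.65% and 2.01% of all genes. The median log2 difference of the 5 genes was 0.76, 0.59 and 0.70 in these 3 comparisons, against 0.11, 0.08 and 0.02 over all genes. These medians are the values of TDO2 (0.76 and 0.70) and IDO2 (0.59), which were under background in every line. They therefore show no shift of measured genes. The 3 comparisons share arrays pairwise, so they are not separate evidence. With 5 genes the counts only summarise the single values that follow.

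Lineage markers were set against the labelled cell types. Of 7 intestinal markers, 6 were above background in HT-29, 2 in MDA-MB-436 and 1 in MCF10A. LGALS4, which encodes a galectin of gut epithelium, was at 2372 in HT-29 and under background in both mammary lines. The intestinal transcription factor genes did not set HT-29 apart: CDX2 was at 74.8 in HT-29, 51.9 in MDA-MB-436 and 53.2 in MCF10A, and CDX1 at 34.8 in HT-29, 33.3 in MDA-MB-436 and 22 in MCF10A. Of 3 measured basal mammary markers, 2 were above background in HT-29 (SERPINB5 at 95.9 and CDH3 at 62.2), 0 in MDA-MB-436 and 3 in MCF10A. Of 5 mesenchymal markers, 0 were above it in HT-29, 5 in MDA-MB-436 and 4 in MCF10A, so counts did not separate the mammary lines. By level, 3 of the 5 were past 4-fold toward MDA-MB-436. CDH2 was at 708 there against 33.9 in MCF10A, ZEB1 at 289 against 48.3, and MMP2 at 674 against 29.6, under background. SNAI2 was past 4-fold the other way, at 810 in MDA-MB-436 and 4078 in MCF10A. VIM was at 2038 in MDA-MB-436 and 1933 in MCF10A. Myeloid cells can express IDO1 and KYNU, and hepatocytes TDO2. Of 7 measured leukocyte markers, 1 was above background in HT-29, 2 in MDA-MB-436 and 1 in MCF10A, with summed intensities of 108 in HT-29, 164 in MDA-MB-436 and 226 in MCF10A. PTPRC, the pan-leukocyte surface phosphatase CD45, was at 3.72 in HT-29, 4.16 in MDA-MB-436 and 3.05 in MCF10A. The monocyte coreceptor gene CD14 was at 38.9 in HT-29, 86.5 in MDA-MB-436 and 156 in MCF10A, the same order as KYNU, and its part in the KYNU values was not tested. Of 4 measured hepatocyte markers, 1, APOA1, was above background in each line, and albumin, ALB, lay between 4.18 and 8.03.

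IDO1, on chromosome 8, had an intensity of 481 in HT-29 with IFN-γ, 9.69 in MDA-MB-436 and 5.06 in MCF10A. HT-29 stood alone, although in a bulk culture the share of expressing cells and the level per cell cannot be told apart. The mammary values were at the level of unexpressed genes: 70.0% of the olfactory receptor intensities lay below that of MDA-MB-436 and 44.2% below that of MCF10A. Relative to either mammary line, HT-29 was thus higher by at least 16.1-fold. Against the highest olfactory receptor intensity in place of the background, the bound was at least 4.77-fold. Between MDA-MB-436 and MCF10A no fold is given, because both were under background. Across the series, 401 of the 14410 genes (2.78%) were likewise above background in HT-29 and under it in both other lines, and 152 (1.05%) were also at least 4-fold higher in HT-29 than in each.

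IDO2, the neighbour of IDO1 on chromosome 8 and its paralog with weaker activity toward tryptophan, was at 6.87 in HT-29 with IFN-γ, 4.58 in MDA-MB-436 and 4.67 in MCF10A. TDO2, on chromosome 4, was at 7.72 in HT-29, 7.43 in MDA-MB-436 and 4.57 in MCF10A. All 6 values lay near the median olfactory receptor intensity of 5.92. Neither transcript was detectable in any of the 3 lines at the precision of these arrays, and 25.7% of all genes were under background in every line. Of the 3 genes for the first step, IDO1 was thus the 1 with a measured level, and only in HT-29.

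KYNU, on chromosome 2, had an intensity of 22 in HT-29 with IFN-γ, 130 in MDA-MB-436 and 807 in MCF10A. The values descended from MCF10A through MDA-MB-436 to HT-29, and 91.5% of olfactory receptor intensities were below the HT-29 value. Relative to MCF10A, KYNU in HT-29 was lower by at least 27-fold, and relative to MDA-MB-436 by at least 4.35-fold. In MDA-MB-436 it was 6.19-fold lower than in MCF10A. The step between HT-29 and MDA-MB-436 depends most on the background: against the highest olfactory receptor intensity the bound was at least 1.29-fold. In HT-29, 245 of 14410 genes (1.7%) were lower past 4-fold relative to both other lines. In all 3 comparisons 12 genes (0.0833%) were at least 4-fold lower. KYNU is among these by construction, because the pattern counted is the one its own values show. Values under background entered these counts as deposited. IDO1 and KYNU, the entry and a later step of the same pathway, were thus above background in different lines, IDO1 in HT-29 and KYNU in MDA-MB-436 and MCF10A.

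WARS1, on chromosome 14, had an intensity of 4928 in HT-29 with IFN-γ, 1701 in MDA-MB-436 and 713 in MCF10A. It was well above background in every line, as were 59.4% of all genes, so its differences are measured folds and not bounds. HT-29 was 6.91-fold higher than MCF10A and 2.9-fold higher than MDA-MB-436. MDA-MB-436 was 2.39-fold higher than MCF10A. Only the first of these passed 4-fold. Steps of at least 2-fold in this order, from HT-29 down to MDA-MB-436 and from MDA-MB-436 down to MCF10A, were seen in 154 genes (1.07%).

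WARS1 is transcribed from more than 1 start, and the annotated starts differ in interferon-type motifs. RefSeq (GRCh38.p14) promoter windows of 250 bases before and 50 after a start were matched by symbol for 4 of the 6 genes, TDO2, KYNU, KMO and WARS1, and WARS1 had 2 windows, an outer one and an inner one whose start lies 980 bases further into the gene. The windows were searched on both strands for TTCNNNGAA, the letters of the gamma-activated site (GAS) of IFN-γ-induced genes, for GAAA followed by any 2 bases and GAAA, the core of the interferon-stimulated response element (ISRE) read by IRF factors, and for TGATGNAA, the core of the element bound by ATF4. Printed are the 250 bases before both WARS1 starts and the KYNU start, 5′ to 3′ on the gene's strand, because WARS1 and KYNU are the members with a window and a level above background; capitals mark GAS and ISRE core matches. The windows lie at chr14:100376328-100376577 (minus strand) for the outer WARS1 start, chr14:100375348-100375597 (minus strand) for the inner WARS1 start and chr2:142877414-142877663 (plus strand) for KYNU.
WARS1 outer start: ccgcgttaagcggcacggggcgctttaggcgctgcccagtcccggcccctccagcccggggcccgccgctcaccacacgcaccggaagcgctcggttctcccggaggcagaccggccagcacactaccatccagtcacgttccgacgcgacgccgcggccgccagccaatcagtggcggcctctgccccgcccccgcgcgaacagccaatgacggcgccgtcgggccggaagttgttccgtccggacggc
WARS1 inner start: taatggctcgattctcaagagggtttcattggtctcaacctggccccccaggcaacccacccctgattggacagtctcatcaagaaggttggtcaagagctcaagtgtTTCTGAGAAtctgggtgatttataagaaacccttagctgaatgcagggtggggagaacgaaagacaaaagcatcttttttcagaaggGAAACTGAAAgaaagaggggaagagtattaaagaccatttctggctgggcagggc
KYNU: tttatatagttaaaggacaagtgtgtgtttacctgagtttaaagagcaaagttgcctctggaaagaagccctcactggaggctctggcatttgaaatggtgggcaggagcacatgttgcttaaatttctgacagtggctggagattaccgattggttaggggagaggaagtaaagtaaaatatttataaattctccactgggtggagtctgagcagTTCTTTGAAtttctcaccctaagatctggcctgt

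The outer WARS1 window is rich in G and C (73.6% of its 250 upstream bases) and held 0 matches to any of the 3 motifs. The inner window (47.2% G and C) held a GAS match, TTCTGAGAA, at -142 to -134 and an ISRE core match, GAAACTGAAA, at -55 to -46, counted from the start, and these did not overlap. In the whole promoter table of 35116 windows, 7.66% held a GAS match, 3.57% an ISRE core match and 0.439% (154 windows) held both. KYNU held 2 GAS matches, TTCTTTGAA at -34 to -26 and another at 6 to 14 past the start, and 0 ISRE core matches. TDO2 and KMO held 0 matches to either. Both windows of WARS2, the gene of the mitochondrial tryptophanyl-tRNA synthetase, held the same single GAS match. The ATF4 motif, found in 3.62% of windows, was absent from all of these. A match is a string of letters and not a binding site, and the arrays gave 1 value per gene, so transcripts from the 2 WARS1 starts could not be told apart.

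**Figure D2:**
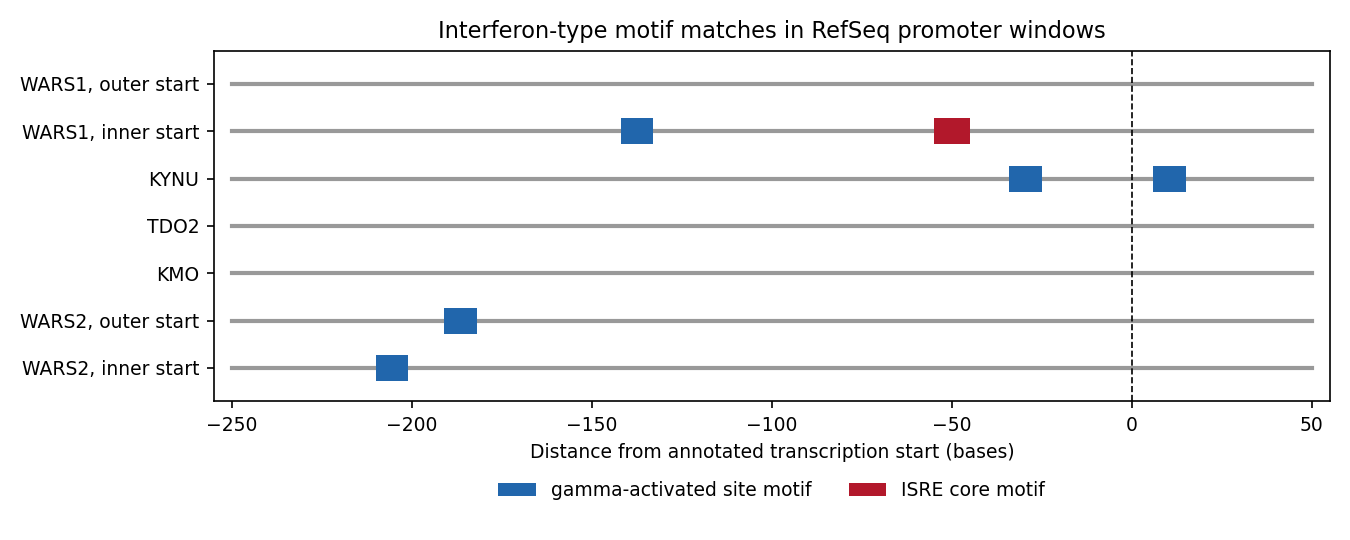
Matches to the GAS motif (blue) and the ISRE core motif (red) in RefSeq promoter windows; the horizontal axis is the distance in bases from the annotated start (dashed line), and each grey line is a window of 250 bases before and 50 after it. The inner WARS1 window carries both motifs, KYNU 2 GAS matches, the WARS2 windows 1 each, and the outer WARS1, TDO2 and KMO windows none.

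The other aminoacyl-tRNA synthetases, each of which charges tRNA with another amino acid, were set beside WARS1 by their differences between lines. All 17 measured cytosolic ones were above background in every line and 0 passed 4-fold in any comparison. For HT-29 minus MCF10A the WARS1 log2 difference of 2.79 was larger than that of all 17, whose median was 0.32 and whose highest was 1.60, for the alanyl enzyme AARS1. For MDA-MB-436 minus MCF10A WARS1 differed by 1.25, again more than all 17, whose median was -0.24 (0.00 after quantile normalization, where its sign turned) and whose highest was 0.49, for the isoleucyl enzyme IARS1. Between HT-29 and MDA-MB-436 WARS1 differed by 1.53, and 2 others differed by more, the cysteinyl enzyme CARS1 by 1.74 and the seryl enzyme SARS1 by 1.54. In that comparison 14 of the 17 were higher in HT-29, with a median of 0.62. WARS2 was at 188 in HT-29, 179 in MDA-MB-436 and 211 in MCF10A, differences of at most 0.24 on the log2 scale. Of the 12 measured mitochondrial synthetases, WARS2 included, 0 were higher past 4-fold in any comparison, IARS2 was 4.55-fold lower in HT-29 than in MCF10A, and NARS2 was 4.08-fold lower in MDA-MB-436 than in MCF10A. The NARS2 difference was 3.59-fold after quantile normalization, and FARS2 joined it at 4.11-fold lower after median centring.

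**Figure D3:**
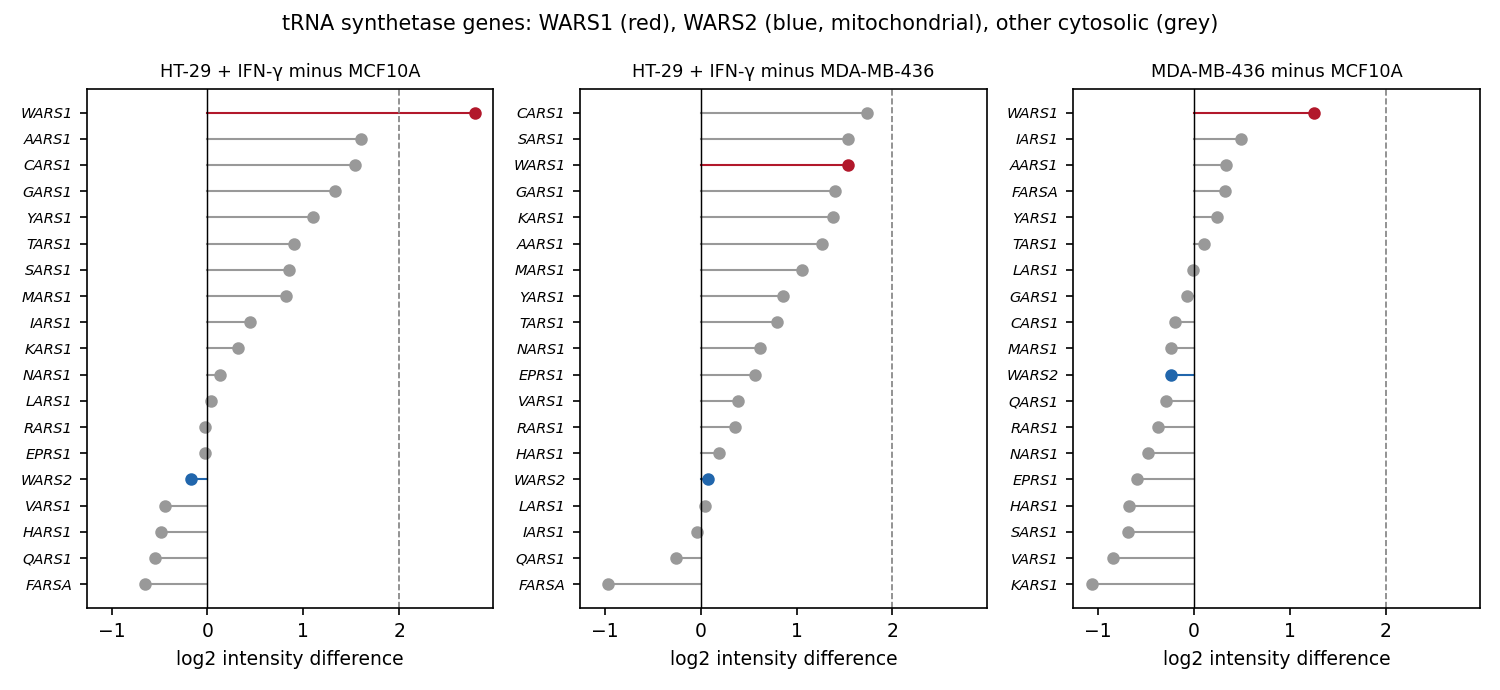
Log2 intensity differences (horizontal axis) of WARS1 (red), WARS2 (blue) and the 17 other cytosolic tRNA synthetase genes (grey), sorted within each of the 3 comparisons of single arrays; the dashed line marks 4-fold. WARS1 has the largest difference in HT-29 minus MCF10A (2.79) and in MDA-MB-436 minus MCF10A (1.25), and CARS1 has it in HT-29 minus MDA-MB-436 (1.74).

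Synthetase genes such as AARS1, CARS1 and SARS1 are also known targets of ATF4, the factor that GCN2 (EIF2AK4) activates when an amino acid runs short. Of 8 genes of this shortage response, 5 were higher past 4-fold and 0 lower in HT-29 relative to MCF10A (median log2 difference 2.28). CHAC1, a glutathione-degrading enzyme gene induced through ATF4, was at 2783 in HT-29, 453 in MDA-MB-436 and 69.2 in MCF10A, 40.2-fold higher in HT-29 than in MCF10A. DDIT3, the stress transcription factor CHOP, was at 1511 in HT-29, 781 in MDA-MB-436 and 60.1 in MCF10A. ASNS, asparagine synthetase, was 5.24-fold higher in HT-29 than in MCF10A, and SESN2, a leucine sensor of the mTORC1 pathway, 11.9-fold. Against MDA-MB-436, 3 of the 8 were higher in HT-29, CHAC1, SESN2 and the pseudokinase gene TRIB3 (4.77-fold). Between MDA-MB-436 and MCF10A, CHAC1 was higher 6.55-fold and DDIT3 13-fold in MDA-MB-436. EIF2AK4 itself ran the other way, at 82.2 in HT-29, 193 in MDA-MB-436 and 214 in MCF10A. Of the 8 genes, 5 (CHAC1, DDIT3, ASNS, SESN2 and PSAT1) had the same order of lines as WARS1 and 3 did not. Besides EIF2AK4, these were TRIB3, at 1249 in HT-29, 262 in MDA-MB-436 and 276 in MCF10A, and ATF4 itself, at 620 in HT-29, 301 in MDA-MB-436 and 349 in MCF10A. The part of this response in the WARS1 values was not tested.

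The IFN-γ signal chain was followed through 8 measured genes. The receptor chains were present in every line: IFNGR1 was at 942 in HT-29, 316 in MDA-MB-436 and 491 in MCF10A, and IFNGR2 at 380 in HT-29, 692 in MDA-MB-436 and 581 in MCF10A. IRF1, an IFN-γ-induced transcription factor that acts on IDO1, was at 3961 in HT-29, 326 in MDA-MB-436 and 94.9 in MCF10A. That is the order of WARS1, whereas IDO1 was under background in both mammary lines with IRF1 above it. JAK2, the receptor kinase, was at 405 in HT-29, 163 in MDA-MB-436 and 56.5 in MCF10A. Between HT-29 and MCF10A, IRF8 was higher by at least 8.78-fold and the feedback inhibitor SOCS1 by at least 7.06-fold. In all, 4 of the 8 were higher in HT-29 than in MCF10A, 3 were higher in HT-29 than in MDA-MB-436, and 2, IRF8 and SOCS1, were higher in MDA-MB-436 relative to MCF10A, with 0 lower in each case. For those 2 the value in MCF10A was under background, and the bounds were 1.02-fold for IRF8 and 1.36-fold for SOCS1. Both calls ended after quantile normalization and with the 99th percentile as background, and that of IRF8 also ended after median centring.

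None of the measured later kynurenine enzymes passed 4-fold as deposited, although AADAT did after median centring: of 8 on the list, 5 were measured, and AFMID, KYAT3 and QPRT had no cluster of their own. AADAT, an aminotransferase that makes kynurenic acid, was at 54 in HT-29, 187 in MDA-MB-436 and 215 in MCF10A, just short of 4-fold lower in HT-29 than in MCF10A (log2 difference -1.99, or -2.01 after median centring). KYAT1, another such aminotransferase, was at 54.2 in HT-29, 57.8 in MDA-MB-436 and 107 in MCF10A. HAAO, the dioxygenase after kynureninase, was at 58.6 in HT-29, 66.8 in MDA-MB-436 and 64 in MCF10A, under the highest olfactory receptor value in each. ACMSD, which draws the pathway away from NAD, was at 5.22 in HT-29, 6.34 in MDA-MB-436 and 2.94 in MCF10A, under background throughout. GOT2, a mitochondrial aspartate aminotransferase that can also act on kynurenine, was at 761 in HT-29, 476 in MDA-MB-436 and 1054.5 in MCF10A. In both comparisons with MCF10A, KYNU thus differed more than each of these 5. Between HT-29 and MDA-MB-436 the order depends on the background. There the KYNU bound was at least 4.35-fold, or 1.29-fold against the highest olfactory receptor intensity, and AADAT differed 3.47-fold.

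NAD can also be rebuilt from nicotinamide, without tryptophan. Among 9 genes of NAD synthesis and salvage, 0 passed 4-fold between HT-29 and MCF10A. NAMPT, the rate-limiting enzyme of salvage, was at 1509 in HT-29, 1122 in MDA-MB-436 and 981 in MCF10A. NNMT, which methylates nicotinamide and so removes it from salvage, was at 1462 in HT-29, 147 in MDA-MB-436 and 1606 in MCF10A. It was the 1 gene of the list past 4-fold, 9.95-fold higher in HT-29 than in MDA-MB-436 and 10.9-fold lower in MDA-MB-436 than in MCF10A.

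Of 6 measured enzymes of other tryptophan routes, 3 were above background in HT-29, 2 in MDA-MB-436 and 2 in MCF10A. The tryptophan hydroxylases TPH1 and TPH2, which start serotonin synthesis, lay under background in each line, at 2.27 to 6.5. Of the 6, MAOA, the monoamine oxidase that degrades serotonin and tryptamine, was the only gene past 4-fold. It was at 194 in HT-29, 32.9 in MDA-MB-436 and 811 in MCF10A, 4.17-fold lower in HT-29 than in MCF10A and 24.7-fold lower in MDA-MB-436 than in MCF10A. Against MDA-MB-436 it was 5.92-fold higher in HT-29. The MDA-MB-436 value lay just above the background of 29.9 and under its 99th percentile form, 60.6. The 24.7-fold and 5.92-fold differences thus rest on a value near the floor. The 4.17-fold difference lies at the threshold and was 3.99-fold after quantile normalization.

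Tryptophan enters cells through carriers of large neutral amino acids, and its main exchanger was above background in every line. SLC7A5, the light chain LAT1, was at 2164 in HT-29, 1359 in MDA-MB-436 and 2353 in MCF10A, and its partner SLC3A2 at 3031 in HT-29, 1439 in MDA-MB-436 and 2427 in MCF10A. Of 10 carriers, 1 was higher and 3 were lower in HT-29 than in MCF10A, 1 was higher in HT-29 than in MDA-MB-436, and 2 were lower in MDA-MB-436 than in MCF10A. SLC43A1, the facilitative carrier LAT3, was at 1198 in HT-29, 76.1 in MDA-MB-436 and 46.2 in MCF10A, 25.9-fold higher in HT-29 than in MCF10A. SLC36A4, a carrier with high affinity for tryptophan and proline, was at 65.9 in HT-29, 107 in MDA-MB-436 and 356 in MCF10A, 5.4-fold lower in HT-29 than in MCF10A, the same order of lines as KYNU. SLC6A15, a carrier of branched-chain amino acids and proline, was at 524 in MCF10A and under background elsewhere, so that both cancer lines were lower by at least 17.5-fold. SLC6A14, a broad neutral and cationic carrier, was at 18.3 in HT-29, 5.69 in MDA-MB-436 and 101 in MCF10A, and lower in both cancer lines by at least 3.38-fold. Both of its calls ended when values under background were set to it. Relative to MCF10A, 2 carriers were then lower in HT-29 and 1 in MDA-MB-436.

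Kynurenine and kynurenic acid act on the aryl hydrocarbon receptor, AHR, and kynurenic acid on GPR35. AHR was at 1194 in HT-29, 453 in MDA-MB-436 and 564 in MCF10A. GPR35 was at 264 in HT-29, 25.4 in MDA-MB-436 and 16.2 in MCF10A, above background in HT-29 alone, as IDO1 was, and higher there by at least 8.81-fold. It was the 1 gene of 7 on the AHR list past 4-fold between HT-29 and MCF10A. CYP1A1, a standard AHR target, was under background in all 3 lines, at 13.3 to 20.8. CYP1B1, another target, was at 159 in HT-29, 703 in MDA-MB-436 and 108 in MCF10A, 4.42-fold lower in HT-29 than in MDA-MB-436 and in MDA-MB-436 6.48-fold higher relative to MCF10A. ALDH3A1 was lower in MDA-MB-436 relative to MCF10A by at least 2.98-fold, and its call ended when values under background were set to it.

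**Figure D4:**
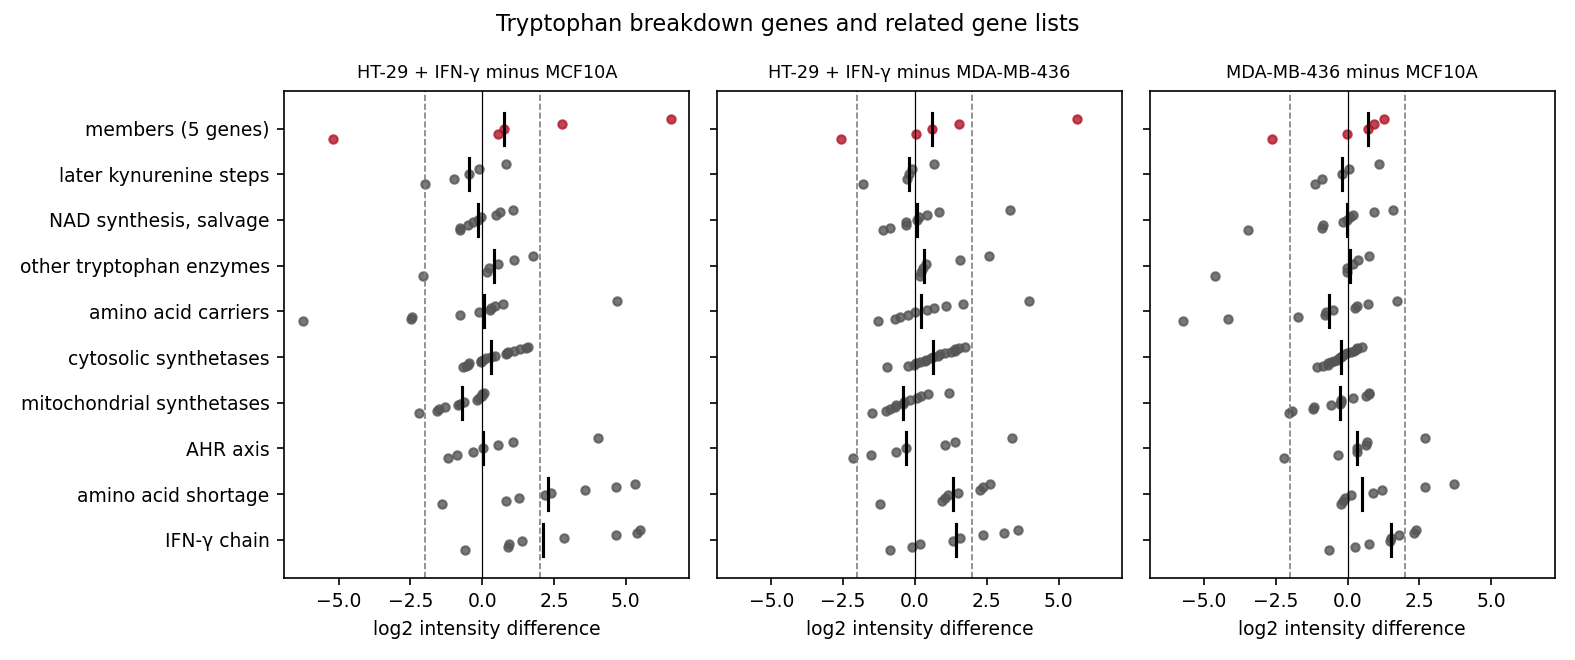
Log2 intensity differences (horizontal axis) of the 5 measured members (red) and of the genes of 9 related lists (grey) in the 3 comparisons of single arrays; black bars are list medians and dashed lines mark 4-fold in each direction. In HT-29 minus MCF10A the amino acid shortage and IFN-γ lists have medians of 2.28 and 2.11, and the members spread from -5.19 (KYNU) to 6.57 (IDO1).

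Genes with the most similar values over the 3 arrays were taken as those with the smallest largest difference in log2 intensity, with values under background set to it. For IDO1 these were GRHL2, RAB25, CIITA, RNF128 and SERPINB9, at differences of at most 0.03, 0.04, 0.04, 0.08 and 0.08. GRHL2 and RAB25 are epithelial genes, and CIITA is the IFN-γ-induced coactivator of class II presentation. All of these genes, like IDO1, were under background in both mammary lines and so equal there by construction, and their likeness to IDO1 rests on the HT-29 array alone. For KYNU they were CAVIN3, TMEM154, P3H2, GSDME and PLAT, at 0.40 to 0.55, of which PLAT encodes tissue plasminogen activator. All but TMEM154 were, like KYNU, under background in HT-29 and so equal to it there by construction. For WARS1 they were GFPT1 at 0.40 and MAP1LC3B, EDF1, MTHFD2 and LGALS3BP at 0.82 to 0.92. Within 1 log2 unit on every array lay 19 genes for KYNU and 12 for WARS1. With 3 arrays such likeness says no more than that the values are close.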

How the data were processed

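Total RNA of 3 cell lines was biotin-labelled and hybridised to exon arrays, 1 per line, as the labels' protocols state. Values were deposited as intensity per transcript cluster on a linear scale; their summary, background correction and normalization are not given in the sources used here, and the submitters' processing notes list the build hg19. Of 18708 clusters, 14733 carried 1 symbol in the platform annotation, 14705 of them matched to RefSeq (GRCh38.p14) by identifier for current symbols, 2875 carried several and were not named, and 1100 were unnamed. The brightest cluster by mean stood for a gene. Differences between arrays were taken on the log2 scale without further normalization (Python 3.11.15, numpy 2.4.6, pandas 2.3.3, matplotlib 3.10.9). The number of arrays limits the precision. The counting step was tested on simulated data with changes larger than 4-fold in genes well above background. That test does not cover calls near 4-fold or near background.

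Members, lists, background rule and alternatives were chosen with earlier results of these data known. Named list genes were up to 4 per list and comparison past 4-fold, by difference after setting values under background to it, and up to 2 against the list median, plus WARS2 and the IFN-γ chain; other named genes that did not pass 4-fold were chosen after their values were seen. The alternatives were quantile normalization, median centring, a background at the 99th percentile, no background filter, values under background set to it, folds of 2 and 8, and the median over the clusters of a gene. No test was possible with 1 array per group.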

Additional observations from a re-analysis of the deposited data

How the results depend on the processing

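IDO1 in HT-29, KYNU in MDA-MB-436 and MCF10A, and WARS1 in all 3 lines stayed above background under quantile normalization, median centring and the 99th percentile. The directions of their called differences were kept under both scalings. The median over clusters could not change these genes, because each had 1 cluster. Setting values under background to it could not reverse a called direction. The bounds rest on the background: with the 99th percentile, 60.6, IDO1 in HT-29 was higher by at least 7.93-fold, and KYNU in HT-29 was lower by at least 13.3-fold relative to MCF10A and 2.15-fold relative to MDA-MB-436. At 8-fold, 1 member was higher in HT-29 than in MCF10A, 0 were lower in HT-29 than in MDA-MB-436 and 0 were lower in MDA-MB-436 relative to MCF10A. Over all 14410 genes, the counts in the same order were 332, 331 and 132. At 2-fold, 2 members were higher in HT-29 than in MDA-MB-436 and 1 was higher in MDA-MB-436 relative to MCF10A. Over all genes, these counts were 1659 and 1262.

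Over the 9 related lists pooled, 11 genes were higher and 5 lower in HT-29 than in MCF10A at 4-fold (all genes: 4.34% and 3.5%). At 2-fold these were 20 and 11 (all genes: 1467 and 1454 of 14410). At 8-fold, 1 was lower (all genes: 237). Against MDA-MB-436, 10 were higher and 1 lower in HT-29 at 4-fold (all genes: 4.21% and 4.68%). At 2-fold these were 26 and 7 (all genes: 1659 and 1581), and at 8-fold 5 and 0 (all genes: 292 and 331). Between MDA-MB-436 and MCF10A, 11 were higher and 12 lower at 2-fold (all genes: 1262 and 1259), and 1 was higher at 8-fold (all genes: 241). At 4-fold, 5 were higher and 6 lower (all genes: 3.65% and 2.01%). There, 3 were higher, without IRF8 and SOCS1, after quantile normalization, with the 99th percentile as background, and with values under background set to it; the last 2 settings raise the value compared against or the level required. Quantile normalization also turned the sign of 3 other small list medians: the AHR list between HT-29 and MCF10A (0.03 against -0.08), the NAD list between HT-29 and MDA-MB-436 (0.09 against -0.16) and the other tryptophan enzymes between MDA-MB-436 and MCF10A (0.08 against -0.17, and -0.03 after median centring). The cause was not tested. It moved the median of all genes between HT-29 and MCF10A by -0.12 on the log2 scale, and median centring moved that between MDA-MB-436 and MCF10A by -0.11. Over all genes, 526 were higher in MDA-MB-436 relative to MCF10A, and 307 with values under background set to it.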
